A study of Mus musculus with 59 samples.

Results

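The matrix metalloproteinases (MMPs), the tissue inhibitors of metalloproteinases (TIMPs) and the ADAMTS proteases were followed across 59 primary mammary tumors of mice. The genes were taken by symbol alone, as Mmp, Timp or Adamts followed by a number, and no expression value entered the choice. This gave 46 of the 55421 genes in the table: 23 MMP genes, 4 TIMP genes and 19 ADAMTS genes. Of these, 42 had at least 1 read in some tumor, and 30 had a mean level of at least 1 and were tested: 12 MMP, 4 TIMP and 14 ADAMTS genes.

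The mice were B6.FVB-Tg(MMTV-PyVT)634Mul/LellJ animals, and every tumor was labelled PyMT (+/-). All of them, the controls included, therefore carried the polyoma middle T oncogene, which is driven by the mouse mammary tumor virus promoter and so acts mainly in mammary epithelium. Tumors came from mice treated with vehicle (n = 19), methylparaben (n = 20) or propylparaben (n = 20). The parabens are preservatives that differ in the alcohol joined to para-hydroxybenzoic acid, methyl in one and propyl in the other. For these groups the labels give no dose, route, duration, age or batch, and they do not say that each library came from a separate mouse, so p-values measure the spread between these libraries. Each library was made from total RNA of a frozen piece of tumor, which holds epithelium together with stroma, vessels and sometimes adjacent tissue. Marker genes of luminal mammary epithelium were detected in every tumor, with a summed level of 1252 to 2643. They were Krt8, Krt18, Krt19, Epcam, Cdh1, Gata3 and Esr1. Levels are scaled CPM, the reads on a gene relative to the size of its library, and with 1166502 to 2032789 reads on genes per library, 1 read was worth 0.323 to 0.664 scaled CPM.

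MMPs are zinc-dependent proteases that are made as inactive proenzymes and, once activated, cut collagens, laminins, fibronectin and other matrix proteins. TIMPs are small secreted proteins that bind the active site of MMPs, and TIMP3 also inhibits several ADAMTS enzymes. ADAMTS proteases are secreted enzymes with thrombospondin repeats, and different members cut large proteoglycans such as versican and aggrecan or trim procollagens into mature collagen. In mammary carcinomas many of these genes are made by fibroblasts and macrophages of the stroma rather than by the epithelial tumor cells.

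Of the MMP genes, 10 lie side by side on chromosome 9 (chr9:7272514-7699585, GRCm38): Mmp13, Mmp12, Mmp1b, Mmp3, Mmp1a, Mmp10, Mmp8, Mmp27, Mmp20 and Mmp7. Promoters of this run are known for binding AP-1, the Fos and Jun transcription factor that responds to growth signals. RefSeq (GRCm38.p6) gave promoter entries for 32 of the 46 genes, and the 250 bases before each start were searched on both strands for the AP-1 sequence TGANTCA, which reads the same way on either strand. The sequence was found in the windows of 8 genes, all in this run, against 7.82% of all genes with an entry and 6.75% of all 32851 windows. Mmp8 and Mmp27 were the members of the run without it, and no entry outside the run held it. Mmp12 has a pair of entries, and the match lies in the one that starts farther downstream. Promoter stretches are given for the 3 tested genes of the run and for a pair that was silent or nearly so. These genes had very different levels, and each has a match to TGANTCA, in capitals. The match is TGACTCA for Mmp13 and TGAGTCA for Mmp3, Mmp12, Mmp10 and Mmp1a. The stretches are written 5′ to 3′ on the gene's strand.
Mmp3: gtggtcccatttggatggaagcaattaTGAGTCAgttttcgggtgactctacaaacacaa
Mmp12: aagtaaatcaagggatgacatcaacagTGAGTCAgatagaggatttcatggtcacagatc
Mmp13: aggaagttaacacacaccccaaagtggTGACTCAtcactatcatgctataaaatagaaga
Mmp10: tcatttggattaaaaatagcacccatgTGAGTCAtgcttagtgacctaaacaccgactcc
Mmp1a: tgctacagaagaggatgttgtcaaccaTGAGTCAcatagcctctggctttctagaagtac
The stretches lie at chr9:7445749-7445808 (Mmp3), chr9:7347303-7347362 (Mmp12), chr9:7272452-7272511 (Mmp13), chr9:7502252-7502311 (Mmp10) and chr9:7464041-7464100 (Mmp1a), all on the plus strand. The match begins 46, 44, 35, 63 and 73 bases before the RefSeq start, in that order. Mean levels over the 59 tumors were 35.2 for Mmp3, 10.996 for Mmp12, 6.96 for Mmp13 and 0.137 for Mmp10, while Mmp1a had no read in any tumor. A match is a description of the sequence and is not evidence of binding.

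The highest levels of the whole set were those of inhibitors. Timp3, whose product is held in the matrix, had a mean of 910 ± 297 (SD, n = 59), and Timp2, which inhibits MMP2 and also takes part in its activation, had a mean of 628 ± 162. Per kilobase of annotated exon the order was reversed, with Timp2 at 161 and Timp3 at 112. Timp1, a secreted inhibitor that rises in wounds and inflammation, had a mean of 16.6 ± 7.99, or 18.7 per kilobase of exon. Timp4 was close to the limit of detection, with 198 reads over all tumors and a median of 0 in vehicle.

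Across the vehicle tumors Timp3 ranged from 337 to 1298 (median 831), in methylparaben tumors from 457 to 1494 (median 980.0) and in propylparaben tumors from 431 to 1754 (median 1006). Timp2 ranged from 320.0 to 1023 (median 602) in vehicle, from 358 to 920.0 (median 616) with methylparaben and from 337 to 978 (median 642) with propylparaben. The groups overlapped over most of their range for both genes, and the highest Timp3 values, in propylparaben and in methylparaben tumors, lay above every vehicle tumor. Timp1 ran from 5.34 to 29.0 (median 13.9) in vehicle, from 6.89 to 30.2 (median 16.1) with methylparaben and from 7.23 to 49.4 (median 15.99) with propylparaben, where a single tumor, propylparaben replicate 9, held the top value.

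Among the proteases, Mmp14, the membrane-bound collagenase that activates MMP2 at the cell surface, was the most abundant, with a mean of 168 ± 46.1 and 28.2 per kilobase of exon. Its values ran from 69.6 to 270.1 (median 169) in vehicle, from 72.8 to 258 (median 163) with methylparaben and from 53.9 to 241 (median 176) with propylparaben. Other membrane-type members were lower: Mmp15 had a mean of 39.4 ± 10.5, Mmp25 of 2.42 and Mmp16 of 2.07, and Mmp17 (0.799) and Mmp24 (0.0324) were under the level tested. The 3 groups overlapped over nearly their whole range for Mmp14.

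Secreted MMPs were led by Mmp2, the gelatinase that cuts basement membrane collagen, with a mean of 37.8 ± 18.9, and Mmp3, the stromelysin that cuts many matrix proteins and activates other MMPs, with a mean of 35.2 ± 21.4. Per kilobase of exon Mmp3 (19.5) stood above Mmp2 (11.2). The other gelatinase, Mmp9, had a mean of 2.89 ± 1.91 and only 390 reads over the 59 tumors. Mmp12, the macrophage metalloelastase, had a mean of 10.996 ± 14.1, an SD larger than its mean. Mmp13, the main interstitial collagenase of mice, had a mean of 6.96 ± 5.75, and Mmp11, a stromelysin first described in the stroma of breast carcinomas, of 3.72 ± 2.06. Mmp19 had a mean of 11.04 ± 8.29 and Mmp23 of 2.79 ± 1.496. Collagenases were otherwise sparse: Mmp8, the neutrophil collagenase, had a mean of 0.869 with reads in 46 of 59 tumors, and Mmp1a and Mmp1b had none.

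Of the proteoglycan-cleaving ADAMTS genes, Adamts1 had a mean of 84.5 ± 34.4, Adamts5 of 27.5 ± 15.2, Adamts15 of 16.9 ± 4.79, Adamts8 of 13.5 ± 3.99, Adamts4 of 8.54 ± 5.51 and Adamts9 of 3.62 ± 2.05. ADAMTS4 and ADAMTS5 are the classical aggrecanases, and ADAMTS1 and ADAMTS9 are known for cutting versican. Of the procollagen-processing enzymes, Adamts2 had a mean of 46.3 ± 24.2 and Adamts3 of 2.601 ± 1.43, and Adamts14 (0.628) was not tested. The remaining tested members lay between 2.05 (Adamts6) and 9.11 (Adamts10), with Adamts12 at 8.71 ± 3.81. The most abundant ADAMTS genes were thus Adamts1, which acts on proteoglycans, and Adamts2, which trims procollagens.

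The 16 genes under the level tested were Mmp1a, Mmp1b, Mmp7, Mmp8, Mmp10, Mmp17, Mmp20, Mmp21, Mmp24, Mmp27, Mmp28, Adamts13, Adamts14, Adamts16, Adamts19 and Adamts20. Mmp1a, Mmp1b, Mmp21 and Adamts13 had no read in any tumor, and a count of 0 allows up to 3 reads, which is 0.969 to 1.99 scaled CPM depending on the library and covers counting error only. Mmp7, the matrilysin of glandular epithelium, had reads in 27 tumors and a mean of 0.329. How the authors treated strand in counting is not given in the sources used here, and exons of 13 members overlap exons of a gene on the other strand. Among them are Timp3 and Timp4, which lie inside the synapsin genes Syn3 and Syn2, Mmp11 with Chchd10 and Mmp19 with Tmem198b. Reads of such pairs cannot be told apart without strand.

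**Figure D1:**
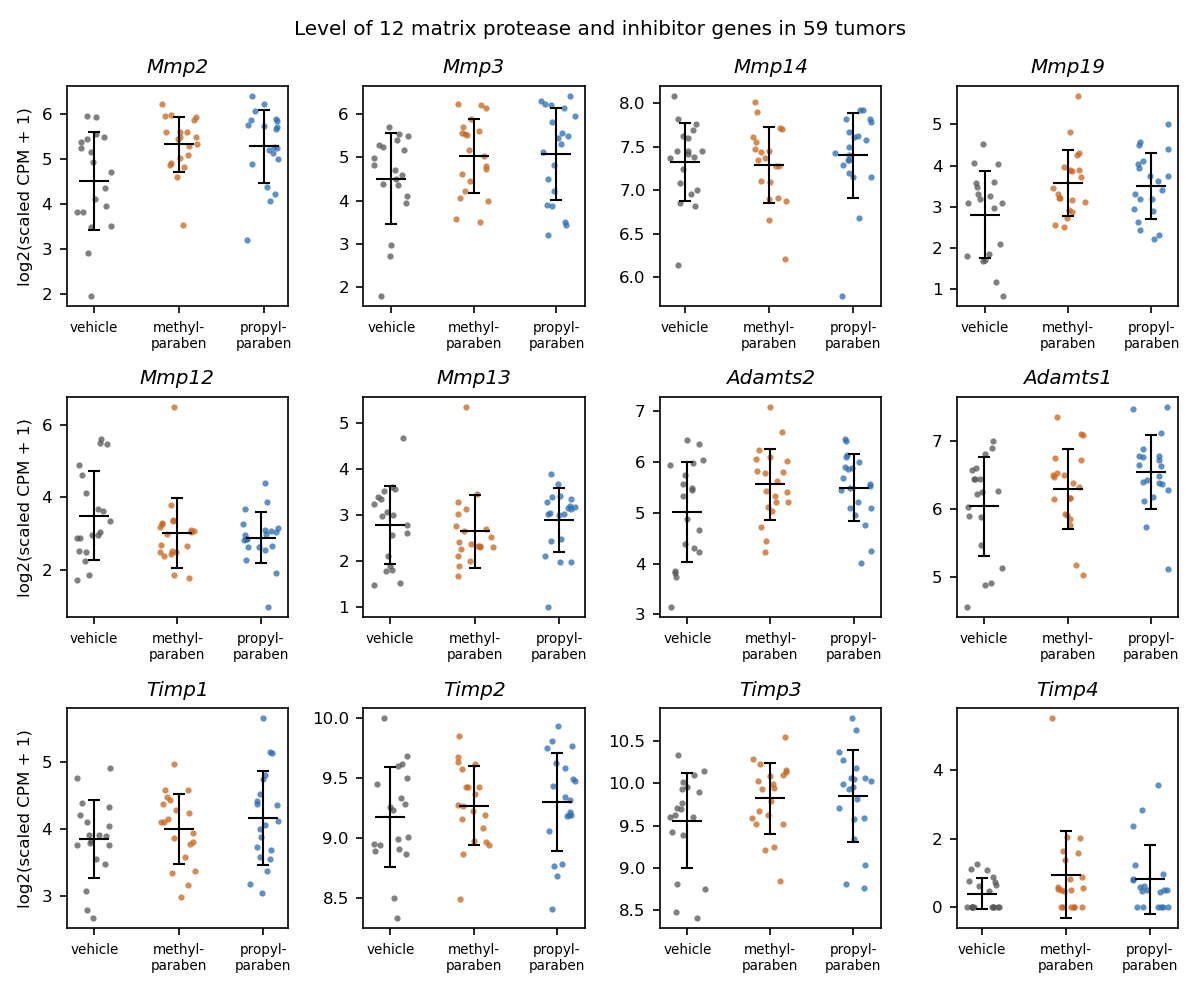
Level of 12 of the genes in each of the 59 tumors, as log2(scaled CPM + 1) on the vertical axes, in vehicle, methylparaben and propylparaben tumors (points are tumors, bars are the group mean ± SD). The groups overlap for every gene shown, and the lowest Mmp2 and Mmp19 values are mostly vehicle tumors. Mmp12, Mmp13 and Timp4 each have their highest value in a methylparaben tumor (88.5, 39.7 and 45.2 scaled CPM). The next tumor has 47.6, 24.6 and 10.9.

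Most of these genes varied more between tumors of a group than genes of like level did. The SD of log2(scaled CPM + 1) within groups was above the median of the 200 genes nearest in mean level for 27 of the 30 tested members, and above 180 of the 200 for 14 of them. It was 0.99 for Mmp3, against a median of 0.27 among its 200 neighbours, and 0.86 for Mmp2, against 0.27. In both cases 199 of the 200 neighbours had a smaller SD. Timp4 (0.98), Mmp12 (0.98), Mmp19 (0.89) and Adamts18 (0.87) were also wide. Adamts7, at 0.51 against 0.57 among its neighbours, was the steadiest by this measure. Differences between groups are read against this spread.

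Methylparaben against vehicle asks which of these genes differed in tumors of mice given the methyl ester. No member passed (adjusted p under 0.05, limma, Benjamini-Hochberg over 14487 genes), where 1.32% of all tested genes did. At an unadjusted p under 0.05 there were 7 of 30 members, or 23.3%, close to the 22.1% of all genes: 5 had higher means (11.8% of all genes) and 2 had lower means (10.3%). DESeq2 called none of the members, against 4.42% of all genes. The smallest p belonged to Mmp2. It ranged from 2.88 to 61.2 (median 25.2) in vehicle and from 10.5 to 73.4 (median 42.9) with methylparaben, a log2 difference of 0.82 ± 0.26 (SE, limma adjusted p = 0.0718), and 18 of 20 methylparaben tumors were above the vehicle median. The groups overlapped over most of their range, and the lowest value, the median and the highest value were each above those of vehicle. Mmp19 ran from 0.771 to 21.8 (median 7.46) in vehicle and from 4.64 to 50.5 (median 9.42) with methylparaben (log2 0.77 ± 0.27, adjusted p = 0.0935).

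The remaining 5 members of that count were 3 with higher and 2 with lower means. The higher ones were Mmp15 (log2 0.29 ± 0.13), Adamts2 (0.54 ± 0.24) and Adamts9 (0.42 ± 0.19), and the lower ones Adamts18 (-0.66 ± 0.27) and Adamts10 (-0.35 ± 0.16), with limma adjusted p from 0.138 to 0.182. Adamts18 went from 0.752 to 10.9 (median 2.80) in vehicle and from 0 to 10.4 (median 1.60) with methylparaben, with 4 of 20 tumors above the vehicle median. Timp4 differed by 0.55 ± 0.30 (adjusted p = 0.280) on this scale. The 95% intervals of the abundant inhibitors and of Mmp14 were -0.05 to 0.58 for Timp3, -0.15 to 0.34 for Timp2 and -0.32 to 0.25 for Mmp14, on the log2 scale. Mmp3 (log2 0.52), Adamts5 (0.49), Adamts1 (0.26), Adamts15 (0.15) and Adamts12 (0.16) had intervals that included 0, as did Mmp12 (-0.48), Adamts4 (-0.35), Mmp9 (-0.21), Mmp13 (-0.14), Mmp11 (0.08) and Timp1 (0.16). Over the 30 members the median difference was 0.16, with 23 of them higher, against a median of 0.005 over all genes, of which 51.2% were higher.

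Single libraries decided the calls here. Without vehicle replicate 5 both Mmp2 (log2 0.90, limma adjusted p = 0.0323) and Mmp19 (0.86, adjusted p = 0.0428) passed, where 6.44% of all genes then did. Mmp2 also passed without vehicle replicate 9, 11 or 12 (0.0448, 0.0431 and 0.0494), where 3.4%, 4.88% and 3.29% of all genes passed. With the edgeR quasi-likelihood test on recovered reads 1 member passed, Timp4 (log2 2.64, adjusted p = 0.0366), against 3.86% of all genes. Timp4 stood at 45.2 in methylparaben replicate 5, from 0 to 3.10 in the other methylparaben tumors and from 0 to 1.39 in vehicle. Without that library the same test gave 1.04 (adjusted p = 0.361). Methylparaben replicate 5 also had the highest adipocyte score (8.89) and skeletal muscle score (9.58) of the 59 tumors; the part of these tissues in its Timp4 level was not tested.

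Propylparaben against vehicle uses the same 19 control tumors, so its values are not independent of those above. No member passed (limma), where 0.0276% of all genes did, and 7 of 30 members, 23.3%, had an unadjusted p under 0.05, against 18.4% of all genes. Of these, 5 had higher means (8.92% of all genes) and 2 lower means (9.49%). edgeR called none of the members (0.145% of all genes), and DESeq2 none of the 21 members it gave an adjusted p (1.85%). Mmp2 ran from 8.19 to 83.0 (median 43.2) with propylparaben, a log2 difference of 0.77 ± 0.26 (adjusted p = 0.114), with 16 of 20 tumors above the vehicle median. Adamts1 ranged from 22.5 to 127 (median 75.3) in vehicle and from 33.6 to 179 (median 92.8) with propylparaben (log2 0.50 ± 0.19, adjusted p = 0.154). Mmp19 ran from 3.68 to 31.2 (median 10.4), a difference of 0.70 ± 0.27 (adjusted p = 0.161). All 3 overlapped with vehicle over most of their range.

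Adamts12 (log2 0.42 ± 0.19) and Adamts9 (0.40 ± 0.19) were the other members with higher means in that count, and Adamts18 (-0.60 ± 0.27) and Mmp12 (-0.61 ± 0.30) had lower means, with limma adjusted p from 0.213 to 0.265. Mmp12 ran from 2.34 to 47.6 (median 7.32) in vehicle and from 0.979 to 20.1 (median 6.54) with propylparaben, so the medians were close and the means, 15.2 ± 15.0 and 7.27 ± 4.10, differed through a few high vehicle tumors. Of the others by the smallest p, Adamts4 (-0.29), Mmp9 (-0.17) and Adamts10 (-0.07) had negative differences with intervals that included 0. Timp1 (0.32), Timp2 (0.12), Timp3 (0.29), Timp4 (0.41), Mmp3 (0.57), Mmp11 (0.16), Mmp13 (0.10), Mmp14 (0.08), Mmp15 (0.24), Adamts2 (0.47), Adamts5 (0.47) and Adamts15 (0.09) had positive differences, again with intervals that included 0. Over the 30 members the median difference was 0.25 with 24 higher, against a median of -0.001 over all genes, of which 49.8% were higher. Without propylparaben replicate 1 Mmp2 passed (log2 0.88, adjusted p = 0.0474), where 2.2% of all genes then did.

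**Figure D2:**
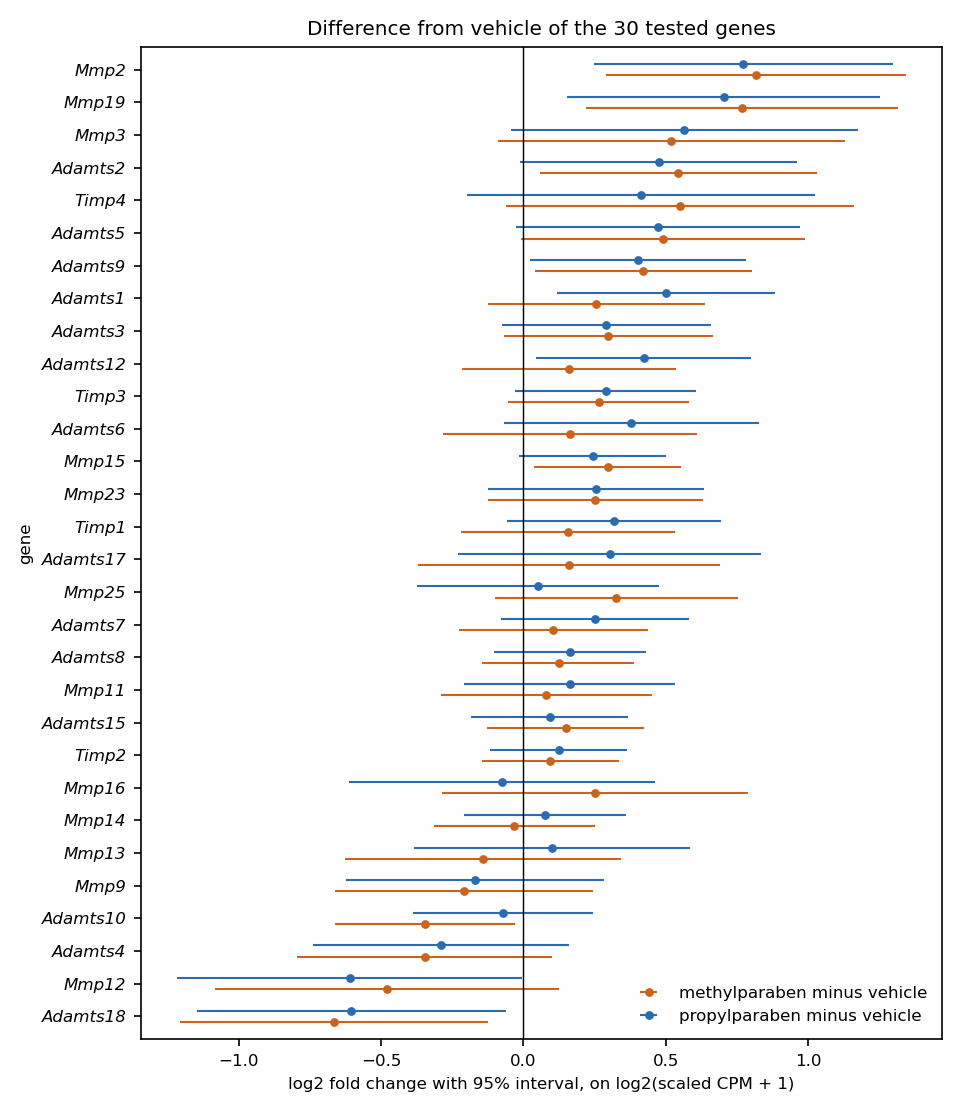
Difference from vehicle of the 30 tested genes, as log2 fold change on log2(scaled CPM + 1) with its 95% interval (horizontal axis), for methylparaben (orange) and propylparaben (blue), which share the vehicle tumors. Mmp2 and Mmp19 lie farthest to the right (0.82 and 0.77 with methylparaben), Adamts18 farthest to the left (-0.66), and none passed after adjustment.

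Propylparaben against methylparaben compares a propyl with a methyl ester of the same acid, at doses the labels do not give. Again no member passed, as 0% of all genes did, and none of the 30 had an unadjusted p under 0.05, where 2.15% of all genes did (0.787% higher and 1.36% lower with propylparaben). edgeR, which called 0.145% of all genes, and DESeq2, which called 0%, also called none of the members. The smallest p were those of Adamts10 (log2 0.27 ± 0.16), Adamts12 (0.26 ± 0.19), Adamts1 (0.24 ± 0.19), Mmp13 (0.24 ± 0.24) and Adamts6 (0.22 ± 0.22) among positive differences. Among negative differences they were Mmp25 (-0.28 ± 0.21), Mmp16 (-0.33 ± 0.27), Timp4 (-0.14 ± 0.30), Mmp12 (-0.13 ± 0.30) and Adamts15 (-0.06 ± 0.14). The limma adjusted p was 1.00 for all 30. A missed threshold does not show that the esters act alike: the 95% intervals of the difference were -0.21 to 0.27 for Timp2, -0.17 to 0.39 for Mmp14, -0.56 to 0.48 for Mmp2 and -0.61 to 0.48 for Mmp19, all on the log2 scale.

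Markers of stromal and other cells moved with these differences, and in bulk tissue a change in the number of cells of a type cannot be told from a change of RNA per cell. The 10 fibroblast markers had a summed level from 422 to 5301 (median 1798) in vehicle, from 1490 to 4945 (median 2617) with methylparaben and from 945 to 6177 (median 2889) with propylparaben. All 10 were higher with methylparaben (median log2 0.51) and 9 of 10 with propylparaben (0.57), with none passing. Adipocyte markers summed to 46.4 to 476 (median 162) in vehicle, 66.9 to 8216 (median 433) with methylparaben and 57.8 to 2272 (median 236) with propylparaben, and mitosis genes to medians of 675, 499 and 585. Higher means were also seen for 7 and 6 of 7 endothelial markers (medians 0.32 and 0.28), for all 8 adipocyte markers (1.25 and 0.87), for 8 and 9 of 9 macrophage markers (0.21 and 0.24), for 5 of 7 basal markers in both (0.55 and 0.44) and for all 6 skeletal muscle markers (1.21 and 0.81). Skin keratinocyte markers were higher in 6 of 6 with methylparaben and in 1 of 6 with propylparaben. Of the luminal markers, 7 and 6 of 7 were higher, and Gata3 and Esr1 passed with methylparaben, calls that were lost in 10 and 20 of 59 fits with a library left out (highest adjusted p 0.0784 and 0.0855). The 10 mitosis genes were all lower in both comparisons (medians -0.49 and -0.38), and Ccna2 and Ccnb1 passed with methylparaben, calls lost in 24 and 39 of the 59 fits (highest adjusted p 0.0952 and 0.101). Without the 7 tumors lowest on the first principal component, these 4 genes had an adjusted p of 0.843. They also missed the threshold with no filter, with the compared groups alone, with array weights and with 6 tissue scores as covariates. All of them passed with edgeR and DESeq2. Without methylparaben replicate 5, edgeR no longer called Gata3 (adjusted p = 0.0718) or Esr1 (0.096), and still called Ccna2 (0.0456) and Ccnb1 (0.0479). Neutrophil markers were higher in 2 and 1 of 5 tested, T cell markers in 2 and 1 of 3, and the B cell and the cartilage and bone lists had 1 and 2 tested genes, higher in both.

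With the fibroblast score as a covariate, chosen after seeing the data, the Mmp2 difference was 0.25 with methylparaben and 0.21 with propylparaben, in place of 0.82 and 0.77. That of Mmp19 was 0.28 and 0.22, that of Adamts2 was 0.02 with methylparaben and that of Adamts12 was 0.07 with propylparaben. Adamts1 was at 0.36 with propylparaben, Adamts9 at 0.34 and 0.32, Mmp15 at 0.19 with methylparaben and Adamts18 at -0.44 and -0.38. Adamts10 was at -0.26 with methylparaben and Mmp12 at -0.32 with propylparaben. None of the differences with an unadjusted p under 0.05 changed sign with this covariate. Leaving out the 7 tumors lowest on the first principal component, 6 vehicle tumors and propylparaben replicate 1, gave 0.34 and 0.40 for Mmp2, 0.20 and 0.16 for Mmp19, and -0.17 and -0.08 for Adamts18. These 7 tumors had fibroblast scores of 4.38 to 5.84 and mitosis scores of 5.89 to 6.47, where the vehicle medians were 6.29 and 5.56.

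Intronic reads, deposited as a table of their own and normalized apart from the genes, give another readout of the same loci. How introns were defined is not given, so some reads may be counted in both tables. Of the members, 30 had a mean intron value of at least 1 and were tested, and none passed in any comparison, as 0% of all introns did. At an unadjusted p under 0.05, 26.7% of these members' introns differed with methylparaben and 30% with propylparaben, against 13.3% and 12.1% of all tested introns. With methylparaben 6 were higher (7.09% of all introns) and 2 lower (6.18%), and with propylparaben 8 were higher (7% of all introns) and 1 lower (5.08%). Between the esters 2 were higher with propylparaben, Adamts10 (log2 0.38) and Adamts16 (0.84), and none lower, against 3.47% of all introns (1.81% higher and 1.66% lower). Intronic Mmp2 was at 54.99 ± 46.03 in vehicle, 93.9 ± 44.5 with methylparaben (log2 1.24 ± 0.36, limma adjusted p = 0.147) and 84.9 ± 42.98 with propylparaben (1.06 ± 0.36, adjusted p = 0.221). In 18 of 20 tumors of either paraben group it was above the vehicle median. Intronic Adamts18 was at 34.6 ± 27.4 in vehicle, 18.5 ± 17.9 with methylparaben (log2 -0.78 ± 0.37) and 16.4 ± 17.4 with propylparaben (-1.02 ± 0.37). Adamts5 introns differed by 0.76 ± 0.31 and 0.75 ± 0.31. The differences of these 3 genes had the same sign in the exonic and the intronic table, as did those of most members tested in both. Those of some members did not. With methylparaben Mmp19 was at 0.77 as a gene and -0.02 in introns, Timp3 at 0.26 and -0.15, and Mmp25 at 0.33 and -0.42. These intron intervals included 0. With propylparaben Mmp19 (0.70 and 0.30) and Timp3 (0.29 and 0.18) had the same sign in both. Adamts16, too low to test as a gene, had intronic reads at 5.69 ± 4.34 in vehicle and 2.28 ± 3.55 with methylparaben (log2 -1.30 ± 0.37, adjusted p = 0.147).

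Over the 59 tumors, with group means removed, intron and gene level followed each other closely for Mmp12 (Pearson r = 0.95, Spearman rho = 0.91), Mmp2 (0.92, 0.90), Adamts7 (0.86, 0.85) and Mmp14 (0.86, 0.87), and hardly at all for Adamts8 (-0.081, 0.005) and Mmp25 (0.112, 0.065). These are descriptions over libraries whose depth is shared by the paired values. For some genes the read counts themselves were close. Mmp12 had 1494 gene and 1590 intron reads over the 59 tumors, with 183 and 194 in methylparaben replicate 20. Adamts7 had 332 and 372, and Mmp14 had 1.45 intron reads per gene read. Whether the same reads were counted in both tables was not tested, so a high r here need not come from separate measurements. Mmp14 introns had a mean of 1108, rank 56 of the 33282 genes in the intron table. Adamts3 introns had a mean of 219 where the gene had 2.601, each on the scale of its own table.

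Other genes of matrix proteolysis were taken as lists. Of the plasminogen activation list, 8 of 11 genes were tested and 5 were higher in either paraben group. Anxa2, a cell-surface receptor on which plasminogen is activated, rose with methylparaben from 264 ± 50.1 to 316 ± 38.5 (log2 0.27 ± 0.07, limma adjusted p = 0.0488), and 19 of 20 methylparaben tumors exceeded the vehicle median. Plat, the tissue plasminogen activator, differed by 0.41 (adjusted p = 0.161) and S100a10, the partner of annexin A2, by -0.20 (0.303). Of the activators and non-TIMP inhibitors, 9 of 10 were tested and 6 were higher in either group. Cd44, a hyaluronan receptor that can hold MMPs at the cell surface, rose with methylparaben from 222 ± 50.3 to 272 ± 39.99 (log2 0.32, adjusted p = 0.0456, 19 of 20 methylparaben tumors over the vehicle median), and was at 274 ± 54.1 with propylparaben (adjusted p = 0.0692). Bsg, which encodes the MMP inducer basigin, differed by -0.28 and -0.24 (adjusted p = 0.0874 and 0.162). Lcn2, whose product binds MMP9, differed by 0.17 with methylparaben, and Furin, which activates membrane-type MMPs, by 0.18 with propylparaben. With single libraries left out, Anxa2 lost its call in 37 of 59 fits and Cd44 in 21 of 59 (highest adjusted p 0.0959 and 0.0948), and both had an adjusted p of 0.843 without the 7 tumors named above. In limma neither passed with no filter (0.0937 and 0.0881), with the compared groups alone (0.071 and 0.0694) or with array weights (0.0566 and 0.0761). With 6 tissue scores as covariates their adjusted p was 0.542 and 0.506. Both passed with edgeR (0.0363 and 0.0366) and DESeq2 (0.0215 and 0.0239). Without methylparaben replicate 5 neither passed with edgeR (0.0581 and 0.0563).

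No other gene of these lists passed. Of the 14 tested matrix substrates, which MMPs and ADAMTS enzymes cut, 13 were higher in both paraben groups, with medians of 0.47 and 0.54. Dcn was nearest to a call with methylparaben (log2 0.88 ± 0.25, limma adjusted p = 0.0537), before Fbn1 (0.56) and Vcan (0.59), and Fbn1 with propylparaben (0.64 ± 0.20, adjusted p = 0.0868), before Col1a2 (0.61) and Dcn (0.66). Dcn and Col1a2 are also among the fibroblast markers, as are Col1a1, Col3a1 and Lum of the substrate list. Of 7 other matrix proteases, 6 and 7 were higher (0.43 and 0.48), led by Dpp4 (0.60 and 0.61), with Htra1 (0.72) and Htra3 (0.72) next with methylparaben and Htra3 (0.80) and Fap (0.48) with propylparaben. Of 9 cathepsin genes and inhibitors, 7 were higher in both (0.13 and 0.14), with Cst3 (0.41 and 0.36), Ctsk (0.69 and 0.61) and Ctsh (0.26 and 0.21) at the smallest p. ADAM sheddases were higher in 7 and 8 of 8 (0.14 and 0.15), led by Adam19 (0.33 and 0.44). Adam12 (0.32) and Adam10 (0.12) were next with methylparaben, and Adam10 (0.12) and Adam33 (0.30) with propylparaben. ADAMTS-like proteins, which resemble ADAMTS enzymes without the protease, were higher in 6 of 6 in both groups (0.30 and 0.28), led by Adamtsl1 (0.58 and 0.67), with Adamtsl4 (0.34) and Adamtsl2 (0.35) or Papln (0.38) and Adamtsl2 (0.40) next. Between the esters no gene of the 7 lists passed.

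How the members varied from tumor to tumor was set against marker scores, each the mean log2 level of a marker list, over the 59 tumors with group means removed. Each of the 30 members was compared with 10 scores, 300 relations in all, with permutation p from 100000 resamples within groups (the smallest they can give is 1e-05) and Benjamini-Hochberg adjustment over the 300. The fibroblast score had 26 of 30 members with a positive r and 15 positive relations with an adjusted p under 0.05 for both Pearson and Spearman, the most of any score. Other scores were not far behind. The endothelial score had 26 and 13, the macrophage score 26 and 12, and the adipocyte score 22 and 12. The basal and luminal scores each had 23 and 11. For the fibroblast score, Adamts2 (r = 0.86, rho = 0.86), Mmp2 (0.86, 0.85), Adamts5 (0.83, 0.82) and Mmp3 (0.82, 0.81) led, with adjusted p of 7.5e-05 for r and 8.57e-05 for rho. Without the 2 tumors farthest from the median score their r was 0.83, 0.82, 0.81 and 0.78. Within vehicle, methylparaben and propylparaben tumors r was 0.90, 0.74 and 0.87 for Mmp2 and 0.82, 0.74 and 0.88 for Mmp3, so the relation was present in each group. Adamts12 (0.77), Timp2 (0.72), Mmp19 (0.70), Mmp11 (0.67), Mmp23 (0.65), Mmp16 (0.54) and Mmp14 (0.50) also had the fibroblast score as their highest positive one. Of the 30 members, 12 did.

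**Figure D3:**
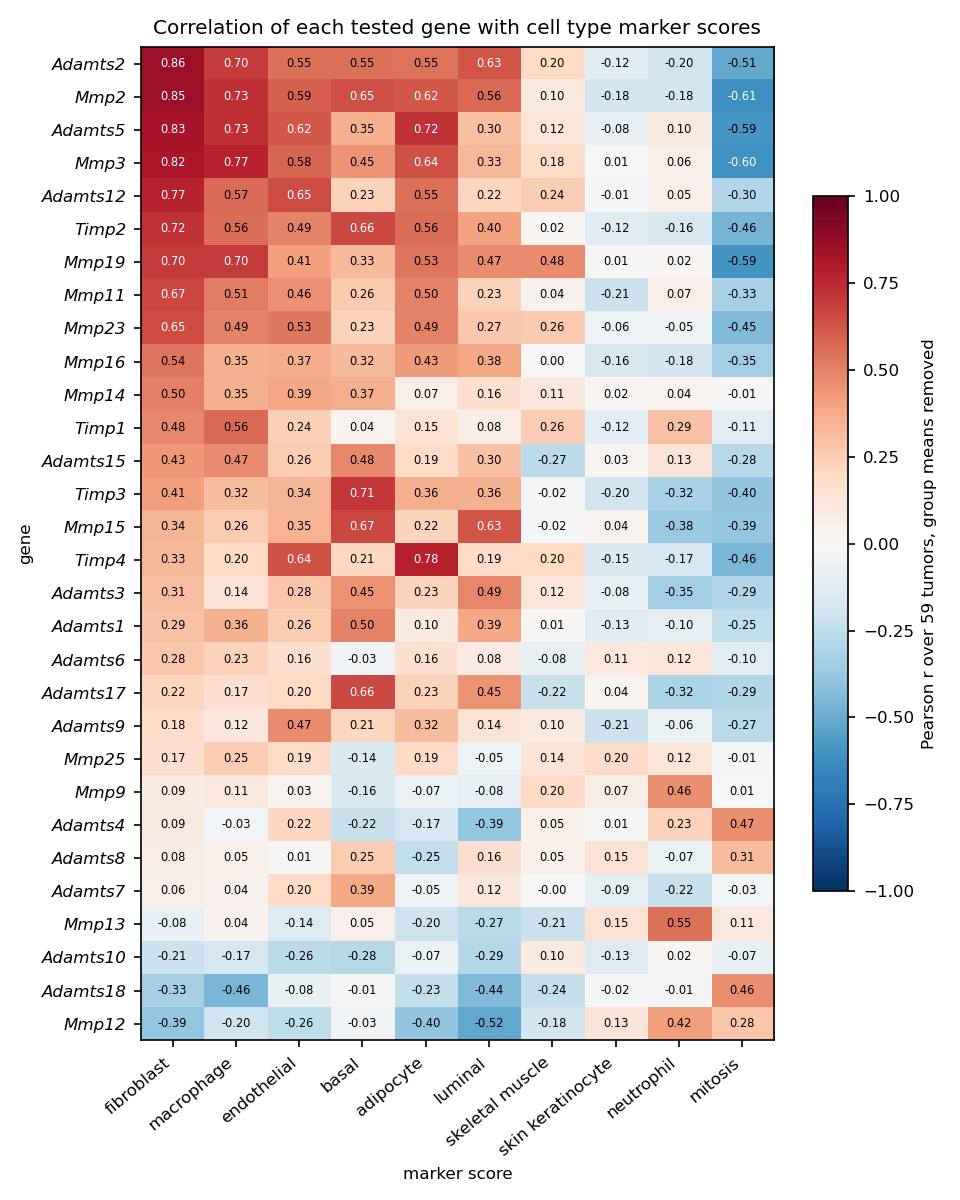
Pearson r over the 59 tumors, group means removed, between each of the 30 tested genes (rows, ordered by the fibroblast column) and 10 marker scores (columns). Red is positive and blue negative, and the number is r. Adamts2, Mmp2, Adamts5 and Mmp3 are red under fibroblast (0.82 to 0.86) and blue under mitosis (-0.51 to -0.61), and Mmp12 is negative under fibroblast (-0.39) and luminal (-0.52).

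Other members had their highest r with other scores. The basal score was built from Krt5, Krt14, Krt17, Acta2, Myh11, Trp63 and Oxtr, markers of myoepithelial cells. Timp3 (r = 0.71, rho = 0.69), Mmp15 (0.67, 0.65), Adamts17 (0.66, 0.67) and Adamts1 (0.50, 0.41) had their highest r with it, as did Adamts15 and Adamts7. Whether its keratins or its contractile genes carried these relations was not tested. Adjusted p for Timp3, Mmp15 and Adamts17 was 7.5e-05 (r), and r without the farthest 2 tumors was 0.65, 0.67 and 0.67. Within groups the Timp3 relation was strongest with propylparaben (0.94), against 0.49 in vehicle and 0.63 with methylparaben; that difference was not tested. Timp4 followed the adipocyte score (r = 0.78, rho = 0.70), and r was 0.67 without the 2 farthest tumors. Timp1 was highest with the macrophage score (r = 0.57, rho = 0.55, adjusted p = 7.5e-05 for r). Adamts9 was highest with the endothelial score (r = 0.47, rho = 0.39, adjusted p = 0.0015 for r).

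Of the members nearest to the neutrophil score, Mmp13 and Mmp9 had little relation to the fibroblast score (r = -0.079 and 0.094), while Mmp12 had a negative one (-0.39). Mmp13 (r = 0.55, rho = 0.54, adjusted p = 7.5e-05 for r), Mmp9 (0.46, 0.45, adjusted p = 0.00138) and Mmp12 (0.42, 0.40, adjusted p = 0.00824) had their highest r with the neutrophil score. Without the 2 tumors farthest in that score r was 0.47, 0.44 and 0.48. That score rested on 5 of its 10 genes, since Ly6g, Cxcr2, Ngp, Camp and Elane had means under 1, and within propylparaben tumors r for Mmp9 was 0.059. Mmp12, named for its expression in macrophages, had r = -0.20 (adjusted p = 0.282) with the macrophage score and -0.52 (rho = -0.54, adjusted p = 0.000737) with the luminal score. Adamts18 (r = 0.46, rho = 0.46, adjusted p = 0.00115) and Adamts4 (0.47, 0.49, adjusted p = 0.002) were highest with the mitosis score. For Adamts18 that relation was 0.83 within vehicle, 0.32 with methylparaben and 0.12 with propylparaben, a difference that was not tested. Against the same score Mmp2 (-0.61), Mmp3 (-0.60), Mmp19 (-0.59) and Adamts5 (-0.59) were lower where mitosis genes were higher, but within methylparaben tumors r for Mmp2 was -0.082. Adamts10 reached at most 0.099 (skeletal muscle), and Adamts3 was highest with the luminal score (0.49).

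Among the 435 pairs of tested members the median r was 0.15, with 50 pairs above 0.5 and 6 above 0.7. The closest pairs were Mmp2 with Adamts2 (r = 0.87, rho = 0.87), Timp2 with Adamts2 (0.82, 0.86), Adamts5 with Mmp3 (0.80, 0.83), Timp2 with Mmp2 (0.78, 0.83), Mmp2 with Mmp3 (0.75, 0.74) and Mmp19 with Adamts2 (0.73, 0.73). Without the 2 tumors farthest from the median of the first gene these r were 0.85, 0.80, 0.82, 0.76, 0.70 and 0.70. Each of the 6 genes in these pairs had the fibroblast score as its highest one. MMP14, TIMP2 and pro-MMP2 form the complex in which MMP2 is activated, and their transcripts were unequally tied: Timp2 with Mmp2 at 0.78, Mmp14 with Mmp2 at 0.42 and Mmp14 with Timp2 at 0.42 (0.76, 0.32 and 0.22 without the 2 tumors). The lowest pair was Adamts2 with Mmp12 (-0.45, rho = -0.50).

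Neighbours of the chromosome 9 run with the AP-1 sequence shown above differed in how they varied. Mmp3 had r = -0.025 with Mmp12 and 0.15 with Mmp13 (rho -0.12 and 0.063). Mmp12 with Mmp13 had r = 0.50 but rho = 0.24, and r was 0.33 without methylparaben replicate 20 and vehicle replicate 18. Methylparaben replicate 20 held the highest value of both, 88.5 for Mmp12 and 39.7 for Mmp13. The next values were 47.6 for Mmp12 in vehicle replicate 18 and 24.6 for Mmp13 in vehicle replicate 14.

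**Figure D4:**
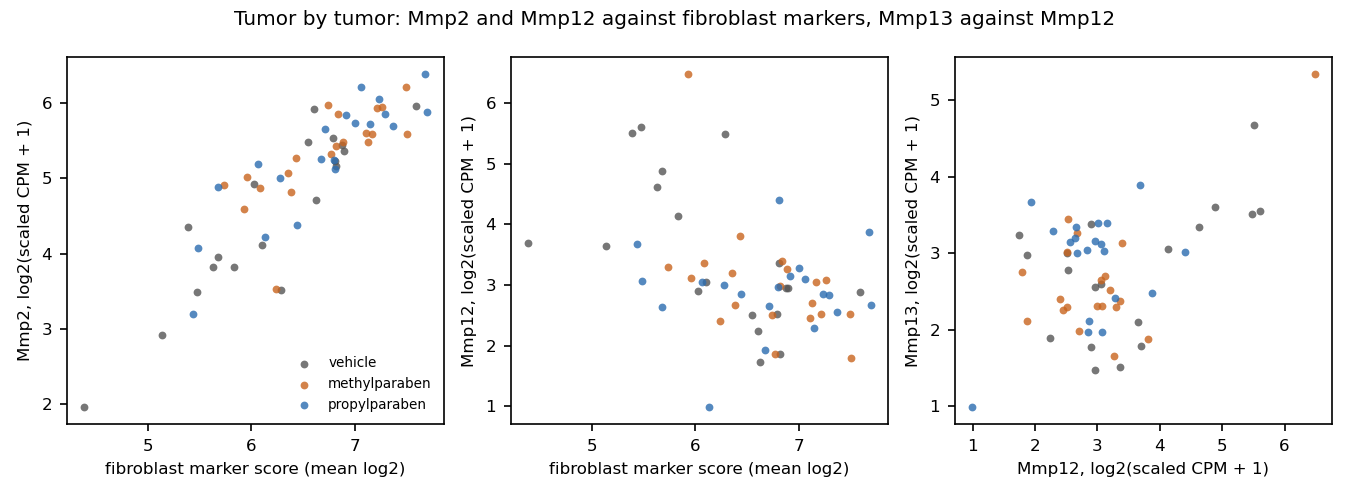
Each point is a tumor, colored by group. Left and middle, Mmp2 and Mmp12 as log2(scaled CPM + 1) against the fibroblast marker score (mean log2); right, Mmp13 against Mmp12 on the same log2 scale. With group means removed, r was 0.86 for Mmp2 and -0.39 for Mmp12 against the score, and 0.50 for Mmp12 with Mmp13, of which 0.33 was left without the top 2 tumors in Mmp12.

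The genes of the whole table most like each member, by Pearson r over the 59 tumors with group means removed and among the 9143 genes with a mean of at least 10, were as follows. For Mmp2 they were Serpinf1 (r = 0.92), Sparc (0.92), Aebp1 (0.91), Clmp (0.91) and Eln (0.90), and for Mmp3 Cd47 (0.83), C1s1 (0.83), Lrp1 (0.82), Dcn (0.81) and Htra3 (0.81). Sparc and Eln encode matrix proteins, and Dcn the proteoglycan decorin. Adamts5 had Igf1 (0.85), Cd47 (0.84), Itgam (0.83), Mrc1 (0.83) and Dpt (0.82), and Mmp11 had Bicc1 (0.74), Spon1 (0.73), Thy1 (0.70), Il1r1 (0.68) and Olfm1 (0.68).
For the inhibitors, Timp2 had Lrrn2 (0.84), Clmp (0.82), Dclk1 (0.82), Adamts2 (0.82) and Sparc (0.82). Timp3 had Palld (0.88), Prelp (0.83), Htra1 (0.80), Fmod (0.79) and Tagln (0.78), of which Palld and Tagln encode proteins of contractile and actin filaments. Timp1 had Csgalnact1 (0.68), Fxyd5 (0.67), Tnc (0.67), Lox (0.66) and Lgmn (0.65). Tnc and Lox encode tenascin C and a collagen cross-linking enzyme.

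Mmp14 had Rftn1 (0.75), Kctd11 (0.74), Rab31 (0.69), Igfbp4 (0.68) and Atp2b1 (0.68) as nearest genes, and Adamts1 had Frzb (0.74), Nfasc (0.73), Sparcl1 (0.73), Ank (0.71) and Npy (0.71). Nearest to Mmp13 were Cd14 (0.60), Spp1 (0.60), Anxa3 (0.57), Slpi (0.57) and Msr1 (0.57); Cd14 and Msr1 are receptors of macrophages and Spp1 encodes osteopontin. Nearest to Mmp12 were 2410006H16Rik (0.64), Mif (0.63), Clta (0.63), 1110038B12Rik (0.62) and Slc2a1 (0.61), none of them a marker in the lists used. Nearest to Mmp9 were Kif26b (0.52), Inhba (0.50), Pim1 (0.47), Col12a1 (0.47) and H19 (0.45), the lowest likeness of the 12 genes searched.

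Extreme values were found in tumors of all groups, but not evenly. Most of the highest values lay in paraben tumors, which together also outnumbered vehicle tumors. Most of the lowest values above 0 that a single tumor held lay in vehicle tumors. The highest values of the 30 tested members lay in 18 different tumors. Methylparaben replicate 20 held 4 of them (Mmp12, Mmp13, Adamts8 and Adamts15), together with the second highest Mmp8 (3.87). Its fibroblast score was 5.93 and its neutrophil score 4.65, against methylparaben medians of 6.80 and 2.91. Propylparaben replicate 10 also held 4 (Adamts3, Adamts5, Adamts12 and Adamts17) and propylparaben replicate 14 held 3 (Mmp2, Mmp15 and Timp3). Methylparaben replicate 18 had the highest Mmp19 (50.5) and Adamts2 (134), and vehicle replicate 10 the highest Mmp14 (270.1) and Adamts4 (35.8). The Adamts4 value was far above the next, 19.0 in vehicle replicate 7. At the other end, vehicle replicate 8 held the lowest value of 7 members (Mmp2, Mmp3, Timp1, Adamts2, Adamts3, Adamts12 and Adamts15), and its fibroblast score of 4.38 was the lowest of all 59.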

How the data were processed

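Total RNA of 59 tumors was sequenced, and groups were taken from the treatment label. Alignment used STAR 2.6.1d and the GRCm38 build, after bcl2fastq 2.20.0.422, and HTSeq 0.10.0 did the counting, per the submitters' processing notes. What annotation, strand setting and intron definition were used is not given in the sources used here. Values were deposited as a signal, called normalized counts by the authors: values in the gene table were whole multiples of 1 read per library (100% within 1e-06), and they match CPM after TMM scaling, with the HTSeq summary lines counted in the library size (largest gap 5e-13%). These lines (reads outside features 13.7 to 35.5% and reads aligned to several places 11.0 to 15.8% of all) named no gene and were left out of tests.

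The fit was limma-trend (limma 3.58.1, R 4.3.3) on log2(value + 1) with a mean per group over all 59 libraries, restricted to the 14487 genes and 14281 introns whose mean reached 1 and adjusted by Benjamini-Hochberg. edgeR 4.0.16 and DESeq2 1.42.0 on recovered reads were alternatives. Positions and exon lengths came from GENCODE M21, which matched all 46 genes, and promoters from RefSeq; the planned search of protein sequences was not run. Members named with values were those with the 5 smallest p in each direction, the 10 most abundant and 18 fixed genes. Nearest genes were sought for 12 fixed members. The members, lists and rule were chosen with earlier results of these data known. On simulated data of 14487 genes for methylparaben against vehicle, 87% of 1.5-fold and 98% of 2-fold changes were recovered. The changed genes were drawn from all genes with a mean of at least 10, the median SE against vehicle over all tested genes was 0.12, and the shares were not computed for genes as variable as Mmp2 (0.262) or Mmp3 (0.304). Alternatives changed the pseudocount, filter, scaling, samples, weights, covariates or test, and left out each library in turn. Those chosen after seeing the data were the fibroblast score as covariate, fits that dropped 7 libraries at the low end of the first principal component, and the edgeR fit without methylparaben replicate 5.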

Additional observations from a re-analysis of the deposited data

How the results depend on the processing

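Counts of members that passed were 0 in all 3 comparisons for genes and for introns. For methylparaben against vehicle the count was 1 with edgeR and from 0 to 2 with single libraries left out (2 when vehicle replicate 5 was dropped, 1 when vehicle replicate 9, 11 or 12 was). For propylparaben against vehicle it was from 0 to 1 (1 without propylparaben replicate 1). Under every other alternative run the counts stayed at 0: other pseudocounts (0.5, 10), other filters (none, a mean of 10), median-of-ratios scaling, fits of the compared groups alone, robust empirical Bayes, array weights, DESeq2 and the covariates; the cause of the changes was not tested. With 6 tissue scores as covariates Adamts2 was at -0.03 for methylparaben and Adamts12 at -0.02 for propylparaben, the only sign changes among the 14 differences with an unadjusted p under 0.05. The other differences have intervals that include 0, so a change of sign among them was not counted as a reversal; with the 6 scores 12 of 23 and 11 of 23 of them changed sign, and the median over all members was -0.07 and -0.02. With the fibroblast score alone it was -0.02 and 0.04, and without the 7 tumors lowest on the first principal component 0.07 and 0.15. DESeq2 gave no adjusted p for 2247 genes with propylparaben, leaving 21 of 30 members. Depth limits genes near a level of 1, where 1 read is 0.323 to 0.664. No paired analysis was possible because replicate numbers only follow record order and no label ties a library of one group to one of another.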
